A study of Mus musculus with 4 samples.

Results

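The loci of Lcn2 and of the metallothionein genes Mt1 and Mt2 were examined for DNase I hypersensitive sites, stretches of DNA that the nuclease cuts readily because few nucleosomes cover them. Every region of the 4 deposited lists that overlapped chr2:32180000-32300000 (the Lcn2 window, 120 kb) or chr8:96650000-96760000 (the Mt window, 110 kb) in the mm9 build was taken, whatever its value. This gave 77 of the 202687 listed regions, and joining the regions that overlap between lists gave 27 sites out of 103288 in all. The Lcn2 window held 12 sites, here named L1 to L12 in map order, and the Mt window held 15, named M1 to M15. The cells were 7438 cells, a mouse mammary line in which GFP-GR, a tagged glucocorticoid receptor, and Cherry-ER, a tagged estrogen receptor, are made from tetracycline-controlled promoters. In all conditions tetracycline had been withdrawn 24 h before hormone, so that both receptors were present in untreated cells as well. Cells received dexamethasone (Dex, a synthetic glucocorticoid) plus estradiol (E2) at 100 nM each, 100 nM Dex, 100 nM E2, or no hormone, and hormone was present for 30 min. Each condition had 1 library of 1 line, so no difference could be tested against a spread between replicates and no p-value is given for any treatment. Expression of markers of mammary cells was not measured in these lists.

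Both receptors are transcription factors that bind DNA once they hold their ligand, and DNA that they or their partners bind often becomes hypersensitive. Lcn2 encodes lipocalin 2, a secreted protein that binds bacterial iron chelators and is known to be induced by inflammatory signals and by glucocorticoids. Mt1 and Mt2 encode small cysteine-rich proteins that bind zinc, copper and cadmium. Their genes are classical targets of the metal-sensing factor MTF1, which binds metal response elements, and of glucocorticoids. In the RefSeq gene table (GRCm38.p6), used here for gene order alone, the protein-coding neighbours of Lcn2 are Ciz1 and 1110008P14Rik on the lower side and Ptges2, Slc25a25 and Naif1 on the higher side. On chromosome 8 the order is Bbs2, Mt4, Mt3, Mt2, Mt1, Nup93 and Slc12a3, where Mt3 and Mt4 are further members of the metallothionein family. Gene models in mm9 were not used here, so whether a site lies in a promoter, an exon or an intron is not stated.

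The reference promoters of the 3 genes are shown because they show which letters of known hormone and metal response elements lie around the starts of these genes. They come from RefSeq (GRCm38.p6), run 5′ to 3′ from 250 bases before the gene's start to 50 bases from it, and are not placed on the mm9 sites. Capitals mark the C/EBP letters TTGCNNAA and the NF-kB letters (GGG, any 5 bases, CC) in Lcn2. In Mt1 they mark the glucocorticoid response element (GRE) letters (GNACA, any 3 bases, TGTNC) and the metal response element (MRE) letters TGCNCNC. In Mt2 they mark the MRE letters and the AP-1 letters TGANTCA. Each was searched on both strands. TGCNCNC is a loose form of the MRE core, because it takes any base after TGC.
Lcn2, chr2:32387690-32387989, minus strand: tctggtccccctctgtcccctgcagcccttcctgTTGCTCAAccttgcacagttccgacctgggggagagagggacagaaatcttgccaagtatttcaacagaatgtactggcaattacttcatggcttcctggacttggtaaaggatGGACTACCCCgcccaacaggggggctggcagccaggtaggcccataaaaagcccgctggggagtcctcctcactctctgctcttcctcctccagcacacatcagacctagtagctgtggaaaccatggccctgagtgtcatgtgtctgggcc
Mt1, chr8:94178839-94179138, plus strand: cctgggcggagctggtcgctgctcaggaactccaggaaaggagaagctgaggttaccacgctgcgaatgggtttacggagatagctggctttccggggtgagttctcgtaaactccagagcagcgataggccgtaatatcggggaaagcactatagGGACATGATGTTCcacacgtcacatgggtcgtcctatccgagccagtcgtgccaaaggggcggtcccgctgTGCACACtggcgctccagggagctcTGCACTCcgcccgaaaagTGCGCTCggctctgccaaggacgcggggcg
Mt2, chr8:94172368-94172667, plus strand: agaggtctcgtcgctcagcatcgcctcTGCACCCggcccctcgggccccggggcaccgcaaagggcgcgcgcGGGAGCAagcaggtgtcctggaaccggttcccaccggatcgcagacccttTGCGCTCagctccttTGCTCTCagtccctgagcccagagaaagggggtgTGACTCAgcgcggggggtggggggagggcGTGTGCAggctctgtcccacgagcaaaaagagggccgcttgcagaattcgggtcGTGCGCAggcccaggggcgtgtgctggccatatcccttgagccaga

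The Mt1 promoter held 1 GRE match, GGACATGATGTTC, which starts 94 bases before the gene's start. Of 32851 reference promoters of this length, 0.475% held these letters. The loose MRE letters occurred 3 times in the Mt1 promoter and 6 times in the Mt2 promoter, without overlap between matches. The matches that begin 2 and 20 bases past the start in Mt1, and 4 bases past it in Mt2, do not lie before the gene. In Mt2, TGCTCTC and the reverse strand of GGGAGCA have T as the base after TGC. At least 3 matches were present in 7.1% of all promoters and at least 6 in 0.225%, while 51% held at least 1. The Mt2 promoter held 1 AP-1 match (7.81% of promoters) and the Lcn2 promoter 1 C/EBP match (10.8%) and 1 NF-kB match (50.8%). Beyond the capitals, the Mt1 promoter held 3 overlapping NF-kB matches and the Mt2 promoter 1 C/EBP match. The estrogen response element letters (GGTCA, any 3 bases, TGACC) were in none of the 3 promoters and in 0.07% of all promoters. A single GRE arm, TGTTCT, was in none of the 3 and in 19% of all. Among 13 genes of metal handling and of lipocalin 2 biology (Lcn2, Mt1, Mt2, Mt3, Mt4, Mtf1, Slc30a1, Slc39a10, Slc22a17, Lrp2, Nfkbiz, Cebpb and Cebpd), 11 had a promoter in the table, 12 promoters in all. Of these, 1 held the GRE letters, none held the estrogen response element letters and 8 held the loose MRE letters. Such matches are descriptions of letters and not binding sites.

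In both windows the clearest difference between libraries went with Dex. Each window held a dense site that was listed after Dex+E2 and after Dex but neither after E2 nor in untreated cells, L7 in the Lcn2 window and M6 in the Mt window. The Mt window held a weaker site of the same kind, M9, and 3 sites, M1, M2 and M10, that were open in untreated cells and denser after Dex. After E2 alone no dense site that was missing from untreated cells appeared in either window. Only 1 site of both windows, M7, reached a maximum density of 20 after E2. Of all E2 sites that dense, 0.361% were missing from untreated cells. The limit of 20 is on the deposited scale and is not equally strict in each library. It was reached by 3602 sites after E2, 7394 after Dex and 7963 after Dex+E2. Densities are the authors' tag densities, scaled per library to a total that is not stated. The median maximum density over the 20687 sites found in all 4 lists was 15.4 after Dex+E2, 14.7 after Dex, 10.2 after E2 and 30.1 in untreated cells, so ratios below are given relative to these medians and, where the choice matters, as deposited. The lists held 50061 (Dex+E2), 51251 (Dex), 35496 (E2) and 65879 (untreated) regions, and the summit of the median region held 36, 32, 37 and 35 tags. Ranges in brackets are 95% intervals that cover counting error only, exact Poisson for a density and exact binomial for a ratio of densities.

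L7 (chr2:32243134-32244124) was the one site of the Lcn2 window listed with Dex and missing from untreated cells. Its maximum density was 20.2 after Dex+E2 (16.2 to 24.8) and 31.3 after Dex (26.2 to 37.3). Its average density was 5.098 after Dex+E2 and 6.44 after Dex, and its width was 959 bp after Dex+E2 and 990 bp after Dex. L7 stood higher after Dex than after Dex+E2, and the intervals of these 2 libraries did not overlap. Relative to the library medians the ratio of Dex+E2 to Dex was 0.614 (0.463 to 0.8104). After Dex, L7 was denser than 93.1% of the listed regions and second to L10 in its window. In untreated cells 95% of the regions within 0.5 of the lowest listed Z score had a maximum density of 7.65 or less, and after E2 of 6.999 or less, which describes how weak most regions at the listing threshold were. The densest of them reached 18.6 in untreated cells and 42.4 after E2. The density of L7 in the lists that lack it is therefore not known. The threshold is local: L3 in the Lcn2 window was listed in untreated cells at 7.91 with a Z score of 5.15, and M3 in the Mt window at 7.65 with a Z score of 7.38. The nearest listed neighbours of L7 were L6, 5399 bp away, and L8, 6424 bp away.

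**Figure D1:**
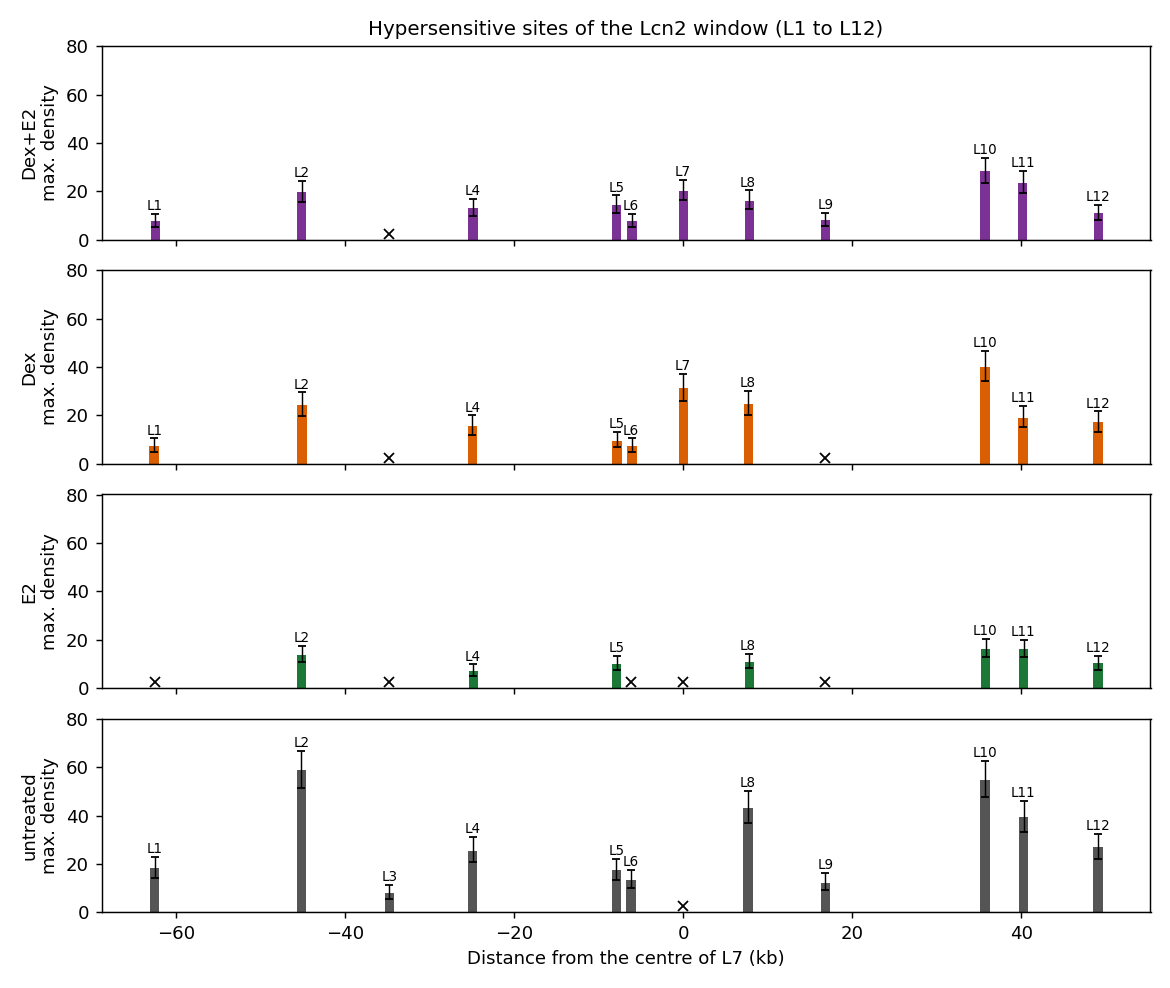
Maximum tag density (deposited scale, y axis) of the 12 sites of the Lcn2 window in the Dex+E2, Dex, E2 and untreated libraries, against the distance from the centre of L7 in kb. Bars are single libraries, error bars exact Poisson 95% intervals, and a cross marks a site missing from that list; L7 reaches 20.2 after Dex+E2 and 31.3 after Dex and has crosses after E2 and in untreated cells.

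The 2 sites on either side of L7 were open before hormone. L8 (chr2:32250548-32252027) had maximum densities of 16.1 after Dex+E2, 24.7 after Dex, 10.8 after E2 and 43.1 in untreated cells. Average densities at L8 were 3.24 after Dex+E2, 4.65 after Dex, 2.28 after E2 and 7.204 in untreated cells, and its widths were 1031 bp after Dex+E2, 1191 bp after Dex, 911 bp after E2 and 1479 bp in untreated cells. L8 was lower in each hormone library than in untreated cells on the deposited scale. Its ratio to untreated relative to the medians was 0.729 (0.545 to 0.967) for Dex+E2, 1.18 (0.909 to 1.51) for Dex and 0.739 (0.534 to 1.01) for E2. L6 (chr2:32237167-32237735) had maximum densities of 7.49 after Dex+E2, 7.35 after Dex and 13.3 in untreated cells. The L6 regions averaged 1.31 after Dex+E2, 1.46 after Dex and 3.697 in untreated cells, and they were 309 bp after Dex+E2, 277 bp after Dex and 568 bp in untreated cells wide. L6 was weak in the libraries that list it and was missing after E2. L5 (chr2:32235400-32236130) had maximum densities of 14.3 after Dex+E2, 9.55 after Dex, 9.999 after E2 and 17.3 in untreated cells. Averaged over its width, L5 stood at 3.98 after Dex+E2, 2.42 after Dex, 3.02 after E2 and 4.21 in untreated cells, and the width was 615 bp after Dex+E2, 671 bp after Dex, 612 bp after E2 and 636 bp in untreated cells. Among the sites of the window in all 4 lists, L5 had the highest ratios of E2 to untreated, 1.701 (1.16 to 2.49), and of Dex+E2 to untreated, 1.61 (1.12 to 2.299), relative to the medians. As deposited, L5 was lower in every hormone library than in untreated cells.

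Of the 4 sites below L5, L2 was the densest and L3 was listed in untreated cells alone. L2 (chr2:32197671-32199204) had maximum densities of 19.5 after Dex+E2, 24.2 after Dex, 13.6 after E2 and 58.7 in untreated cells. Regions of L2 had average densities of 4.82 after Dex+E2, 5.17 after Dex, 3.62 after E2 and 11.5 in untreated cells and measured 1249 bp after Dex+E2, 1352 bp after Dex, 1223 bp after E2 and 1533 bp in untreated cells. Relative to the medians L2 was below untreated after Dex+E2, with a ratio of 0.649 (0.5004 to 0.835), and after E2, 0.684 (0.514 to 0.9002). L4 (chr2:32218158-32219290) had maximum densities of 12.9 after Dex+E2, 15.7 after Dex, 6.999 after E2 and 25.5 in untreated cells. Its average densities were 2.56 after Dex+E2, 2.94 after Dex, 1.45 after E2 and 5.25 in untreated cells, over widths of 927 bp after Dex+E2, 1004 bp after Dex, 572 bp after E2 and 1132 bp in untreated cells. On the deposited scale L4 showed the same order of libraries as L2. With the medians taken into account Dex was again the highest hormone library at both sites, and its ratio to untreated was 0.847 (0.662 to 1.08) at L2 and 1.26 (0.905 to 1.74) at L4, both with intervals that include 1. L1 (chr2:32180723-32181452) had maximum densities of 7.71 after Dex+E2, 7.35 after Dex and 18.1 in untreated cells. Average densities at L1 were 1.97 after Dex+E2, 2.001 after Dex and 3.99 in untreated cells, and its widths were 457 bp after Dex+E2, 393 bp after Dex and 729 bp in untreated cells. L3 (chr2:32208713-32209020) was listed in untreated cells only, with a maximum density of 7.91, an average density of 2.32 and a width of 307 bp. In each library that lists them, L1 and L3 were below the median of the sites found in all 4 lists. Against all listed regions of untreated cells, L1 was denser than 73.4% and L3 than 42.2%.

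Above L8 lay 4 sites, of which L10 was the densest site of the window after Dex. L10 (chr2:32278695-32280027) had maximum densities of 28.4 after Dex+E2, 40.2 after Dex, 16.2 after E2 and 54.8 in untreated cells. The L10 regions averaged 5.92 after Dex+E2, 7.96 after Dex, 4.08 after E2 and 12.6 in untreated cells, and they were 1301 bp after Dex+E2, 1313 bp after Dex, 1198 bp after E2 and 1299 bp in untreated cells wide. Relative to the medians the log2 ratio of Dex to untreated at L10 was 0.59 (0.28 to 0.89), the highest in the Lcn2 window among sites in both lists. L11 (chr2:32283323-32284339) had maximum densities of 23.4 after Dex+E2, 19.1 after Dex, 16.0 after E2 and 39.3 in untreated cells. Averaged over its width, L11 stood at 4.51 after Dex+E2, 3.75 after Dex, 4.53 after E2 and 10.4 in untreated cells, and the width was 945 bp after Dex+E2, 991 bp after Dex, 734 bp after E2 and 856 bp in untreated cells. L11 was above the median in each library. The ratio of Dex to untreated relative to the medians was 0.996 (0.749 to 1.32), and in each comparison its interval included 1. On average density the log2 ratio was −0.45 for Dex over untreated, −0.36 for Dex+E2 over untreated and −0.52 for Dex+E2 over E2. It was 0.15 for E2 over untreated and 0.08 for Dex+E2 over Dex. L12 (chr2:32292379-32293077) had maximum densities of 10.9 after Dex+E2, 17.1 after Dex, 10.2 after E2 and 26.8 in untreated cells. Regions of L12 had average densities of 2.77 after Dex+E2, 4.67 after Dex, 2.92 after E2 and 7.54 in untreated cells and measured 551 bp after Dex+E2, 690 bp after Dex, 648 bp after E2 and 698 bp in untreated cells. L12 was higher after Dex than after Dex+E2 in maximum density, average density and width. L9 (chr2:32260140-32260755) had maximum densities of 7.94 after Dex+E2 and 12.2 in untreated cells. Its average densities were 2.48 after Dex+E2 and 3.77 in untreated cells, over widths of 456 bp after Dex+E2 and 615 bp in untreated cells. L9 was missing from the Dex and E2 lists.

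In the Mt window, M6 (chr8:96694990-96695866) was the densest site after Dex and was in neither list without Dex. Its maximum density was 34.9 after Dex+E2 (29.6 to 40.9) and 42.1 after Dex (36.1 to 48.9). The average density was 7.58 after Dex+E2 and 9.33 after Dex, and the width was 866 bp after Dex+E2 and 872 bp after Dex. The intervals of the 2 libraries overlapped, and relative to the medians the ratio of Dex+E2 to Dex was 0.790 (0.631 to 0.988). After Dex, M6 was denser than 96.1% of all listed regions. Across the genome 1984 sites (1.92% of all sites) were in the Dex+E2 and Dex lists only, and among them M6 ranked 14 by its density after Dex and 11 after Dex+E2. L7 ranked 38 and 91 in the same order. The median site of this kind had a maximum density of 7.49 after Dex+E2 and 8.08 after Dex, so M6 and L7 were among the dense ones.

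M9 (chr8:96712991-96713811) was the third site with this pattern, at that median after Dex+E2 and above it after Dex. Its maximum density was 7.49 after Dex+E2 (5.15 to 10.5) and 13.96 after Dex (10.6 to 18.1), with average densities of 1.66 after Dex+E2 and 2.93 after Dex and widths of 595 bp after Dex+E2 and 820 bp after Dex. The ratio of Dex+E2 to Dex was 0.511 (0.322 to 0.798) relative to the medians, the lowest of the 19 sites in both lists. It ranked 314 of 1984 by its density after Dex and 957 after Dex+E2. M9 was therefore higher after Dex than after Dex+E2, as was L7.

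M1, M2 and M10 were listed in untreated cells and were denser after Dex. M2 (chr8:96658363-96659158) had maximum densities of 25.9 after Dex+E2 (21.3 to 31.1), 37.5 after Dex (31.8 to 43.9), 10.8 after E2 (8.11 to 14.1) and 26.02 in untreated cells (21.2 to 31.6). Its average densities were 9.12 after Dex+E2, 11.8 after Dex, 3.79 after E2 and 9.58 in untreated cells, over 620 bp after Dex+E2, 795 bp after Dex, 605 bp after E2 and 627 bp in untreated cells. The ratio of Dex to untreated was 2.95 (2.28 to 3.83) relative to the medians and 1.44 as deposited. On the deposited scale the Dex library was the highest of the 4 and the E2 library the lowest, and the Dex+E2 and untreated values lay within each other's intervals. Untreated was the lowest relative to the medians, with a ratio of E2 to untreated of 1.22 (0.864 to 1.72) whose interval includes 1. M1 (chr8:96655779-96656540) had maximum densities of 22.9 after Dex+E2, 24.5 after Dex and 17.1 in untreated cells. Average densities at M1 were 6.899 after Dex+E2, 7.10 after Dex and 4.501 in untreated cells, and its widths were 720 bp after Dex+E2, 734 bp after Dex and 714 bp in untreated cells. M1 lay 1823 bp from M2 and had ratios to untreated of 2.94 (2.13 to 4.06) for Dex and 2.62 (1.902 to 3.62) for Dex+E2. M10 (chr8:96718480-96719296) had maximum densities of 14.5 after Dex+E2, 21.8 after Dex and 12.5 in untreated cells. The M10 regions averaged 2.85 after Dex+E2, 4.97 after Dex and 3.39 in untreated cells, and they were 816 bp after Dex+E2, 677 bp after Dex and 731 bp in untreated cells wide. At M10 the ratio to untreated was 3.57 (2.49 to 5.17) for Dex and 2.27 (1.54 to 3.36) for Dex+E2. These ratios of M1 and M10 are relative to the medians. As deposited they were 1.43 for Dex and 1.34 for Dex+E2 at M1, and 1.74 and 1.16 at M10. M1 and M10 were missing after E2, and of the 16 sites in both lists these 3 were the only ones that exceeded untreated after Dex on the deposited scale.

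**Figure D2:**
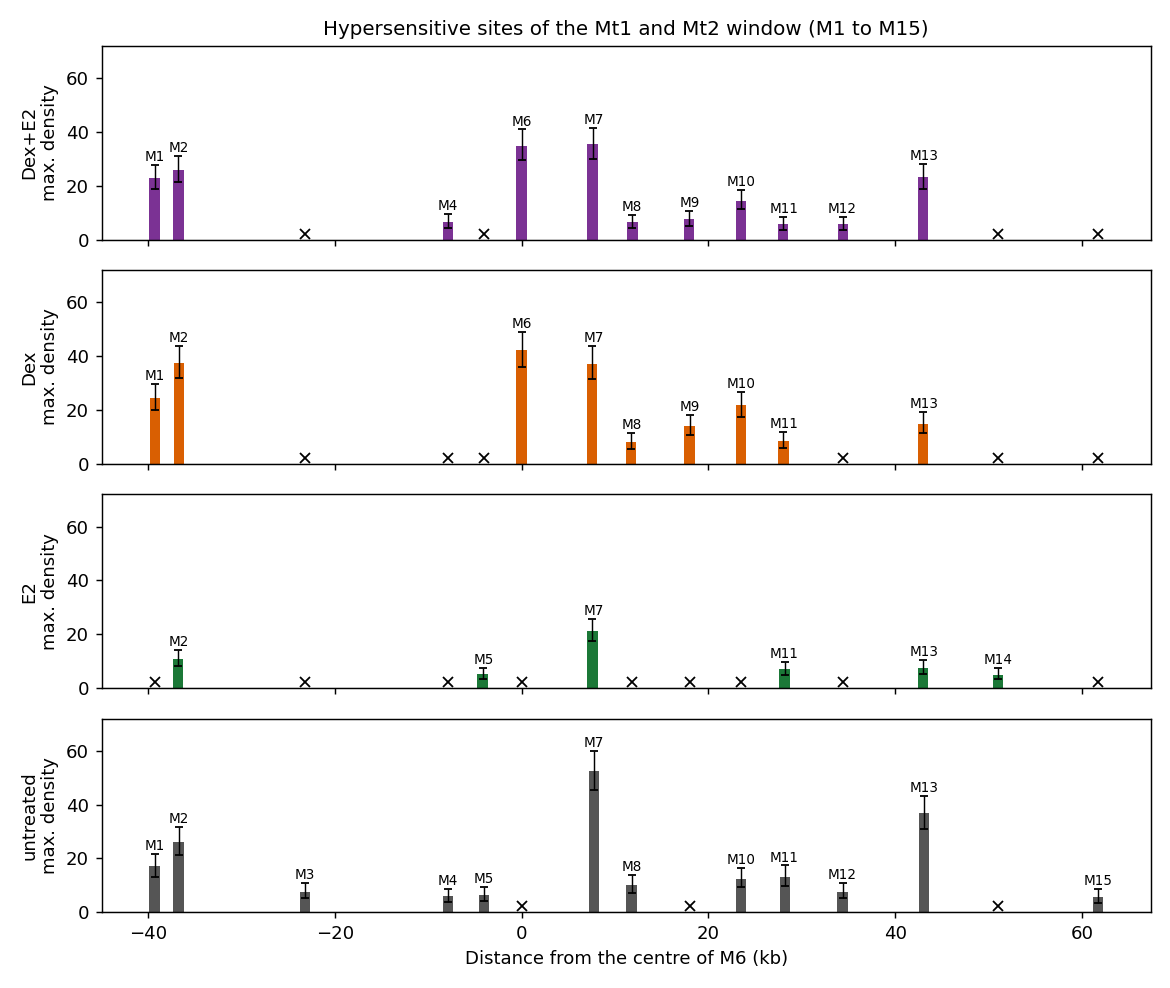
Maximum tag density (deposited scale, y axis) of the 15 sites of the Mt window in the Dex+E2, Dex, E2 and untreated libraries, against the distance from the centre of M6 in kb. Bars are single libraries, error bars exact Poisson 95% intervals, and a cross marks a site missing from that list; M6 reaches 34.9 after Dex+E2 and 42.1 after Dex, while M7 stands in all 4 libraries.

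M7, the neighbour of M6 at a distance of 6643 bp, was the densest site of the window in untreated cells and after E2. M7 (chr8:96702509-96703864) had maximum densities of 35.4 after Dex+E2, 37.2 after Dex, 21.2 after E2 and 52.3 in untreated cells. Averaged over its width, M7 stood at 7.86 after Dex+E2, 7.89 after Dex, 5.21 after E2 and 11.9 in untreated cells, and the width was 809 bp after Dex+E2, 934 bp after Dex, 716 bp after E2 and 1355 bp in untreated cells. It was in all 4 lists, and relative to the medians its ratio of Dex to untreated was 1.46 (1.17 to 1.81) and that of E2 to untreated 1.196 (0.937 to 1.52). Its region was narrower in each hormone library than in untreated cells. M13 (chr8:96737946-96739048) had maximum densities of 23.1 after Dex+E2, 14.9 after Dex, 7.599 after E2 and 36.7 in untreated cells. Regions of M13 had average densities of 4.93 after Dex+E2, 3.402 after Dex, 2.099 after E2 and 7.75 in untreated cells and measured 962 bp after Dex+E2, 687 bp after Dex, 637 bp after E2 and 1073 bp in untreated cells. At M13 the order of the libraries on the deposited scale was untreated, Dex+E2, Dex and E2 from the highest down. Dex+E2 came before untreated relative to the medians, at a ratio of 1.23 (0.944 to 1.595). Relative to the medians the ratio of Dex+E2 to E2 was 2.01 (1.37 to 3.004) at M13 and that of E2 to untreated was 0.611 (0.415 to 0.878). M11 (chr8:96723150-96724001) had maximum densities of 5.67 after Dex+E2, 8.57 after Dex, 6.999 after E2 and 13.3 in untreated cells. Its average densities were 0.904 after Dex+E2, 1.81 after Dex, 1.98 after E2 and 3.14 in untreated cells, over widths of 251 bp after Dex+E2, 613 bp after Dex, 614 bp after E2 and 685 bp in untreated cells. M11 was narrowest and weakest after Dex+E2, where 25 tags stood at its summit.

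The other 7 sites of the window were weak, with maximum densities from 4.999 to 10.2. M8 (chr8:96706889-96707509) had maximum densities of 6.35 after Dex+E2, 8.08 after Dex and 10.2 in untreated cells. Average densities at M8 were 1.99 after Dex+E2, 2.21 after Dex and 2.85 in untreated cells, and its widths were 443 bp after Dex+E2, 519 bp after Dex and 607 bp in untreated cells. M8 was thus listed wherever M10 was. M4 (chr8:96687373-96687751) had maximum densities of 6.58 after Dex+E2 and 5.87 in untreated cells. The M4 regions averaged 1.55 after Dex+E2 and 1.52 in untreated cells, and they were 378 bp after Dex+E2 and 284 bp in untreated cells wide. M12 (chr8:96729531-96730048) had maximum densities of 5.67 after Dex+E2 and 7.65 in untreated cells. Averaged over its width, M12 stood at 1.86 after Dex+E2 and 2.01 in untreated cells, and the width was 266 bp after Dex+E2 and 517 bp in untreated cells. M4 and M12 were missing after Dex and after E2. M5 (chr8:96691123-96691637) had maximum densities of 5.199 after E2 and 6.38 in untreated cells. Regions of M5 had average densities of 0.945 after E2 and 1.62 in untreated cells and measured 251 bp after E2 and 400 bp in untreated cells. M5 was listed without Dex only. M3 (chr8:96672037-96672485) was listed in untreated cells only, with a maximum density of 7.65, an average density of 1.65 and a width of 448 bp. M14 (chr8:96746328-96746579) was listed after E2 only, with a maximum density of 4.999, an average density of 1.07 and a width of 251 bp. M15 (chr8:96756958-96757224) was listed in untreated cells only, with a maximum density of 5.61, an average density of 0.986 and a width of 266 bp. M14 was the one site of both windows listed after E2 and in no other library, and its 25 tags gave a Z score of 5.35, close to the lowest listed value of 5.26.

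**Figure D3:**
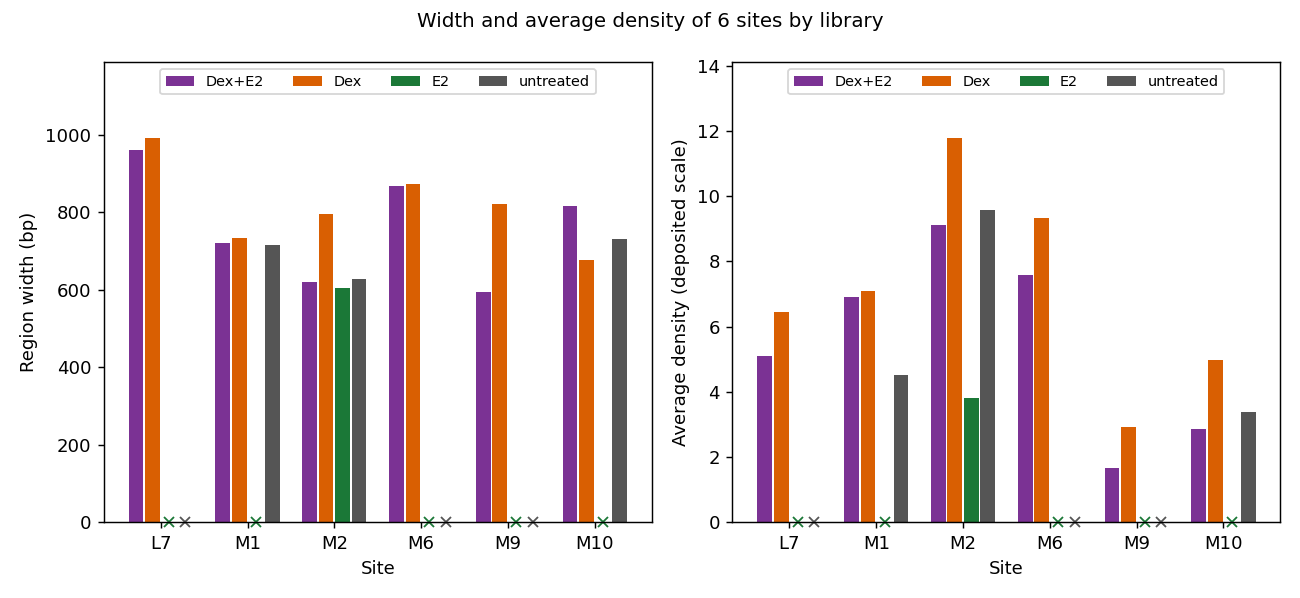
Region width in bp (left) and average tag density on the deposited scale (right) of L7, M1, M2, M6, M9 and M10 in the Dex+E2, Dex, E2 and untreated libraries, 1 library each. A cross marks a site missing from that list; the average density of each of the 6 sites is highest after Dex.

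Dex alone was set against untreated cells. Binding of GR was not measured in these lists, so whether it acted at these sites was not tested. Without replicates, an effect of Dex and a difference between libraries cannot be told apart. Of the 19 sites listed after Dex, 3 were missing from untreated cells (L7, M6 and M9), and 35.5% of all Dex sites were. Among the 9 with a maximum density of at least 20 after Dex, L7 and M6 were missing from untreated cells, against 1.95% of all sites that dense in the Dex library. The limit of 20 was chosen after seeing the data and picks sites by their Dex values. This count is therefore a description and not a test. In the reverse direction 7 of 23 untreated sites were missing after Dex, against 51.3% of all, and each had a maximum density of at most 12.2.

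Of the 11 sites in all 4 lists, 1 (M2) was at least 2-fold higher after Dex relative to the medians, where 6.69% of all sites were, and none was 2-fold lower (0.595% of all). When the 16 sites in both lists were counted, M1, M2 and M10 were at least 2-fold higher (11.8% of all such sites). All 3 lie in the Mt window. The median log2 ratio of the 16 sites was 0.36, and that of all such sites was 0.16. By window it was 0.70 over 7 Mt sites and 0.18 over 9 Lcn2 sites, a difference that was not tested.

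E2 alone was likewise set against untreated cells, again with 1 library each. M14 was the one E2 site of 13 missing from untreated cells (27.6% of all E2 sites), and 11 of 23 untreated sites were missing after E2 (62.5% of all). Of the 11 sites in all 4 lists none was 2-fold higher (7.89% of all) or 2-fold lower (0.445%) relative to the medians. The log2 ratios ran from −0.71 at M13 to 0.77 at L5, with a median of 0.17. Among the 12 sites in both lists M5 was 2-fold higher (14.4% of all such sites), with a ratio of 2.41 (1.34 to 4.34) from 26 and 25 tags, and on average density its log2 ratio was 0.57. As deposited, M5 was lower after E2 than in untreated cells, at a ratio of 0.815. The E2 list is the shortest of the 4, and how far its length bears on the missing sites was not tested.

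Both hormones together gave the same sites missing from untreated cells as Dex alone, L7, M6 and M9, out of 22 Dex+E2 sites (32.7% of all). Of the 8 sites with a maximum density of at least 20 after Dex+E2, L7 and M6 were missing from untreated cells (2.75% of all). L7, at 20.2, was just above this limit, which was chosen after seeing the data. None of the 11 sites in all 4 lists was 2-fold higher (7.19% of all) or 2-fold lower (1.58%) relative to the medians. The highest was M2, at a log2 ratio of 0.96, just short of 2-fold. Among the 19 sites in both lists M1, M4 and M10 were 2-fold higher (10.7% of all such sites), M4 from 29 and 23 tags. As deposited their ratios were 1.34 at M1, 1.12 at M4 and 1.16 at M10. M4 was weak in both lists, so the limit given for M5 applies to it too. On average density M1 alone stayed past 2-fold, with log2 ratios of 1.45 at M1, 0.86 at M4 and 0.59 at M10.

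Adding E2 to Dex left every Dex site of both windows listed: each of the 19 was in the Dex+E2 list, where 41.1% of all Dex sites were missing. Most of them were lower with E2 added. Relative to the medians 16 of the 19 had a log2 ratio below 0, with a median of −0.38, against −0.07 over all sites in both lists. The counting interval lay below a ratio of 1 at 8 sites (L7, L8, L10, L12, M2, M6, M9 and M10) and above it at M13 alone. The shares of all sites in both lists with a log2 ratio below 0, or with such an interval, were not counted. Whether these counts are particular to the windows is therefore not known. The log2 ratio was −0.70 at L7, −0.34 at M6, −0.66 at M10 and 0.56 at M13. None of the 11 sites in all 4 lists was 2-fold higher (1.84% of all) or lower (0.889%), and none of the 19 was either (1.58% and 1.32% of all such sites). As deposited, 5 of the 19 were above 1. With 1 library of each condition, a difference between 2 libraries and an effect of E2 cannot be told apart.

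**Figure D4:**
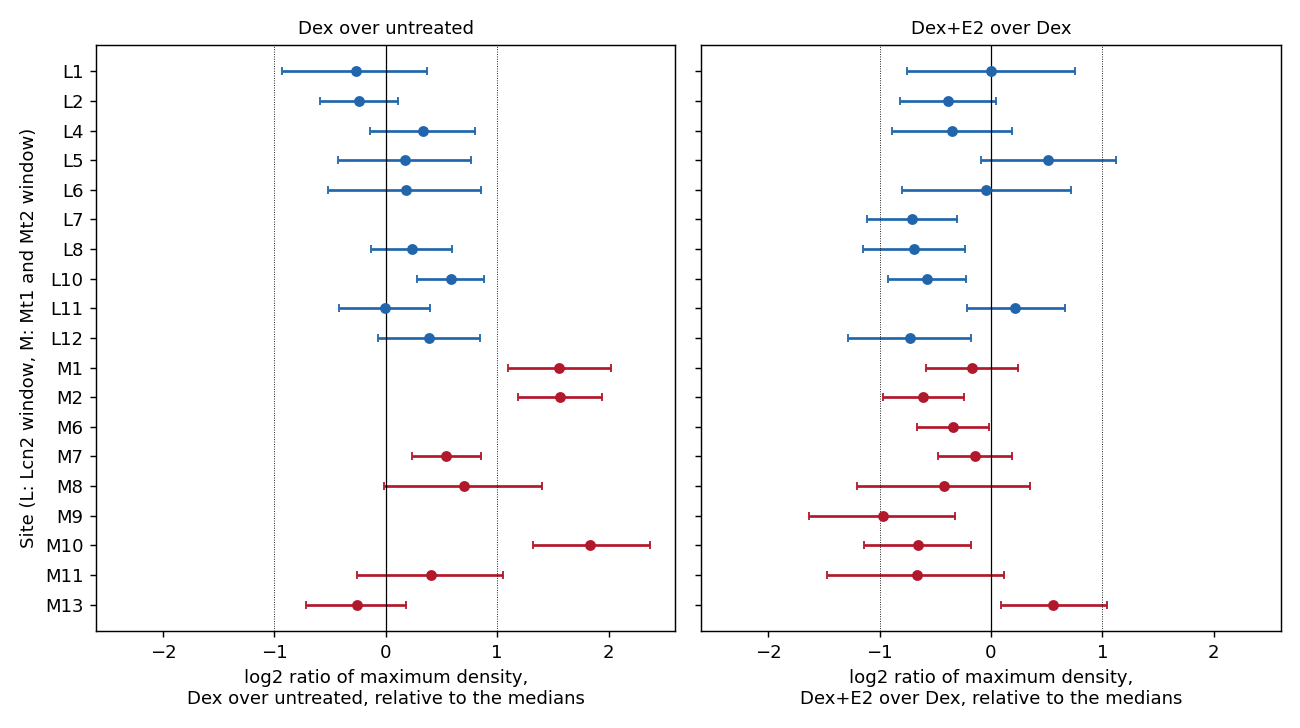
Log2 ratio of maximum density relative to the library medians for Dex over untreated (left, 16 sites) and Dex+E2 over Dex (right, 19 sites), with exact binomial 95% intervals from the tags of 1 library each. Dotted lines mark 2-fold; M1, M2 and M10 lie beyond it on the left, and 16 of 19 points lie below 0 on the right.

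Adding Dex to E2 is the other comparison in which the treatments differ by Dex alone. It shares no library with Dex over untreated, but the medians of both come from the same sites. With 1 library a side, an effect of Dex and a difference between libraries cannot be told apart here either. Of the 22 Dex+E2 sites, 11 were missing after E2 (49.4% of all). Among the 8 with a maximum density of at least 20, L7, M1 and M6 were missing (2.81% of all). This limit picks sites by their Dex+E2 values and was chosen after seeing the data. M5 and M14 were listed after E2 and not after Dex+E2 (28.5% of all E2 sites). Of the 11 sites in all 4 lists, 1 (M13) was 2-fold higher (1.78% of all), at the limit, and none was 2-fold lower (1.04%). At M13 the log2 ratio was 1.01 here, but −0.26 (−0.72 to 0.18) for Dex over untreated, an interval that includes 0. The log2 ratio of M2 was 0.66 here, against 1.56 for Dex over untreated. M11 had the lowest ratio, 0.536 (0.307 to 0.921), from 25 tags after Dex+E2 and 35 after E2.

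**Figure D5:**
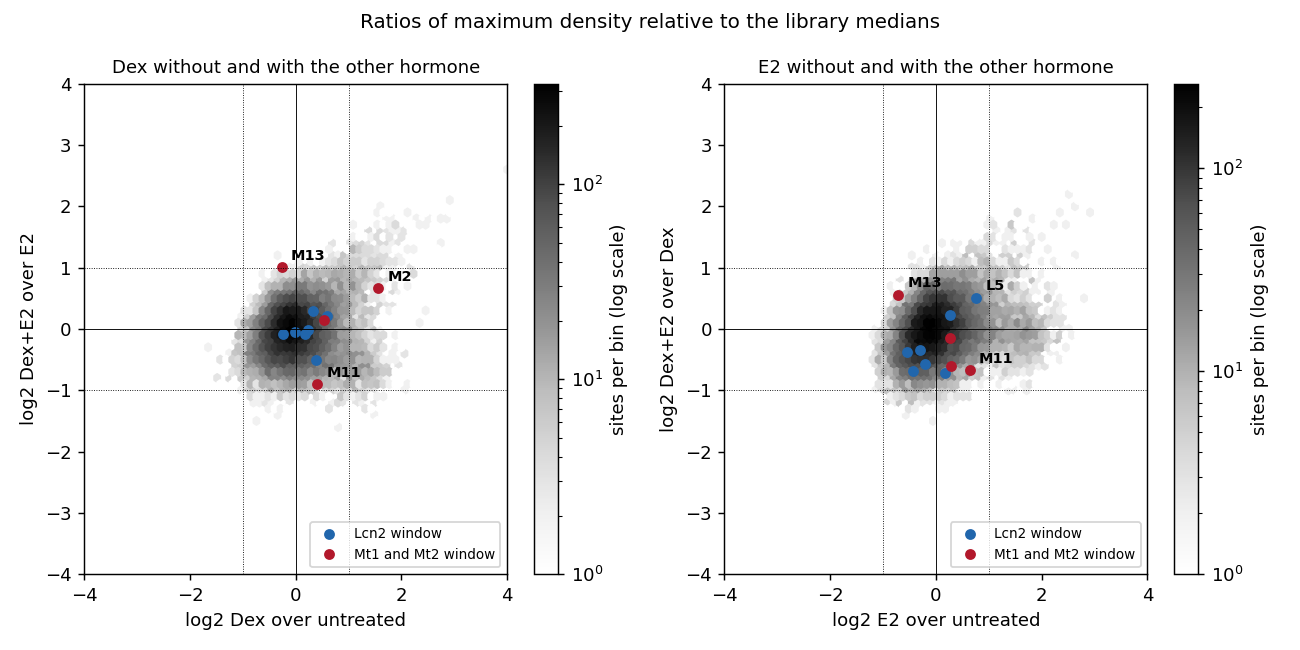
Log2 ratios of maximum density relative to the library medians for the 20687 sites in all 4 lists (grey bins, log colour scale) and the 11 sites of both windows (blue, Lcn2; red, Mt). The left panel sets Dex+E2 over E2 against Dex over untreated, the right panel Dex+E2 over Dex against E2 over untreated; M2 lies at 1.56 and 0.66 on the left.

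The sites most like M2 and M13, the 2 sites in all 4 lists that passed 2-fold in a comparison, were found by the Euclidean distance between their log2 maximum densities in the 4 libraries, relative to the medians and centred per site. For M2 they were chr3:121306860-121308314 (distance 0.0418), chr11:4725981-4727540 (distance 0.0472) and chr5:125380112-125381265 (distance 0.101). The first of these had maximum densities of 16.8 after Dex+E2, 23.8 after Dex, 6.999 after E2 and 16.3 in untreated cells. For M13 they were chr7:133520605-133521891 (distance 0.07097), chr8:72498034-72498797 (distance 0.0813) and chr1:89651982-89653091 (distance 0.0918), and the first had 19.96 after Dex+E2, 12.5 after Dex, 6.399 after E2 and 29.6 in untreated cells. Nothing beyond this pattern over 4 libraries was compared between them.

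The windows were dense in sites, with 10.0 sites per 100 kb in the Lcn2 window and 13.6 in the Mt window, against 3.91 per 100 kb over the chromosomes up to their last listed region. The latter averages whole chromosomes, whereas the windows were drawn around chosen genes. Windows around other genes were not counted, so this density is not shown to be particular to these loci. In the Lcn2 window 7 of 12 sites were in all 4 lists and in the Mt window 4 of 15, where 20% of all sites were. A single list held 1 Lcn2 site and 3 Mt sites, against 58.8% of all sites. Of the sites in both lists, 5 of 16 were wider after Dex, none of 12 after E2 and 5 of 19 after Dex+E2 than in untreated cells. Whole lists differed too, with a median width of 562 bp after Dex+E2, 536 bp after Dex, 538 bp after E2 and 587 bp in untreated cells. The share of all sites that were wider was not counted, so narrower regions are not shown to be particular to these windows. Among the 16, M2 had the largest ratio of widths, 1.27 for Dex over untreated.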

How the data were processed

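DNase-seq of 4 libraries was analysed, 1 per condition, grouped by the treatment in the labels. Per the submitters' processing notes, positions are in mm9 and CASAVA 1.8 was among the tools. The sources used here name no aligner, region caller or scaling total. Maximum and average density are signal values that the authors deposited per region. The deposited Z score and p-value compare a region with its own library's background, and neither was compared between libraries. All maximum densities (100%) were whole multiples of 1 value per list within 0.02 tags: 0.227 for Dex+E2, 0.245 for Dex, 0.200 for E2 and 0.255 for untreated. This value was read as 1 tag.

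Regions overlapping by 1 bp or more were joined into sites, a site taking its highest maximum density and its width-weighted average density in each library. Width is end minus start. Whether positions count from 0 or 1 is not stated. Ratios were divided by library medians over the 20687 sites in all 4 lists, and 2-fold was the limit for a call. Every site of both windows is reported. The windows, lists and motifs were chosen with earlier results of these data known. Counting only sites in both lists of a comparison, and the density of 20 for dense sites, were chosen after seeing the data. The functions were tested on simulated data. Work was done in Python 3.11.15 with pandas 2.3.3, NumPy 2.4.6 and SciPy 1.17.1, and plots in Matplotlib 3.10.9.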

Additional observations from a re-analysis of the deposited data

Results flagged for a closer look

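M13 (chr8:96737946-96739048) was picked out because the E2 contrast went opposite ways without and with Dex. Relative to the library medians its log2 ratio of E2 over untreated was −0.71 (−1.27 to −0.19), and that of Dex+E2 over Dex was 0.56 (0.09 to 1.04). Both counting intervals exclude 0, but each contrast rests on 1 library a side, and the difference between the contrasts was not tested.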

How the results depend on the processing

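Counts of 2-fold sites among the 11 in all 4 lists are small and followed the scaling and the limit. With densities as deposited, 0 were higher and 3 lower for Dex over untreated, 9 lower for E2 over untreated, 4 lower for Dex+E2 over untreated and 2 higher for Dex+E2 over E2. With a limit of 1.5-fold, 2 were higher for Dex over untreated, 2 higher and 1 lower for E2 over untreated, 2 higher and 1 lower for Dex+E2 over untreated, 4 lower for Dex+E2 over Dex, and 2 higher and 1 lower for Dex+E2 over E2. With average density, 1 was lower for Dex+E2 over Dex, and 0 were higher and 1 lower for Dex+E2 over E2. Joining regions within 150 bp left 0 higher for Dex+E2 over E2, where M13 lay at the limit. Sites in both lists gave 3 higher for Dex over untreated, 1 for E2 over untreated and 3 for Dex+E2 over untreated. Medians over sites in both lists of a comparison left all 10 counts as they were. With a Z score of at least 10, the Mt window held 6 Dex+E2, 2 E2 and 7 untreated regions and 2 sites in all 4 lists. Lists of equal length left 7 untreated regions in the Mt window. The other 59 counts kept within 1.5 times their value. Among the 8 ratios past 2-fold at single sites, only M5 for E2 over untreated changed sign, to a log2 ratio of −0.29 as deposited, and none did with average density. No paired analysis was possible because each condition had 1 library, and no library could be left out. Depth limits weak sites: 25 tags at a summit leave a wide counting interval.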
